A study of Mus musculus with 5 samples.

Results

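The genes described here are 35 interferon-stimulated genes, measured in liver. They were taken by name, and the list was chosen with earlier results of these data known. A gene counted as measured where the platform annotation gives it a probe set with exactly 1 symbol, a probe set being the group of probes that is summarised into a single value. By this rule 28 of the 35 genes were measured, of 19938 measured genes in all. Where a gene had several such probe sets, the brightest stands for it. Isg15, Oas1g, Gbp2, Gbp6, Igtp and Ifi47 had only probe sets that carry other symbols too, and Ifi44 had none, so these 7 genes have no value here. The 35 genes were divided by what is known of their induction into 26 that lean towards type I interferon, of which 23 were measured, 7 GTPases of the interferon-gamma response, of which 3 were measured, and 2 genes induced by both, Irf1 and Tap1. The study asked how bezafibrate changes metabolism in diabetic mice. Its 5 samples are the livers of male wildtype C57BL/6N mice of 5 to 6 months, all in 1 group. Every mouse had received streptozotocin (STZ), which kills the insulin-producing cells of the pancreas, at 65 mg/kg on 5 days at an age of 10 to 16 weeks. Every mouse had then eaten bezafibrate (BEZ), a lipid-lowering activator of peroxisome proliferator-activated receptors, for 8 weeks from 2 weeks after the injections. The food held 0.25% or 0.5% bezafibrate, and which of these a mouse ate is not given. Livers without these compounds were not analysed here, so the values give levels and differences between mice, and no effect of either compound.

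Interferons are secreted proteins that put cells into an antiviral state. Type I interferons bind a receptor made of Ifnar1 and Ifnar2 and activate a complex that holds Stat2 and Irf9 and binds a DNA element called ISRE in front of antiviral genes. Interferon-gamma, a product of T and NK cells, binds Ifngr1 and Ifngr2 and acts through an element called GAS to induce Irf1, antigen presentation genes and large families of GTPases. A low level of this program is kept up without infection in many tissues, and in liver both hepatocytes and resident macrophages (Kupffer cells) can respond.

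These elements could be read in the promoters of many of the genes. RefSeq promoter sequences (build GRCm38.p6) were at hand for 26 of the 35 genes, and the 250 bases before the start of transcription were searched on both strands for the ISRE core, which is GAAA and GAAA with any 2 bases between them, and for the GAS letters, TTCNNNGAA. The ISRE core was found in 14 of the 26 genes (53.8%), against 3.46% of 27025 genes and 2.98% of 32851 promoter windows in all. The GAS letters were found in 5 of the 26 (19.2%), against 8.13% of all genes and 7.02% of all windows. Of 19 type I-leaning genes with a promoter sequence, 10 held the ISRE core, and of 5 GTPase genes 4 did. Irf1, which held no ISRE core in its windows, had the GAS letters as TTCCCCGAA at position -90. Positions count back from the start of transcription and give the first base of the match. A match says only that the letters are present, and none means only that these letters are not in this window. The 4 promoters below are shown because they belong to the type I-leaning and GTPase genes with the widest spread between mice that held a match and were above background on all arrays. Only 3 GTPases were measured, so Irgm1 is shown although its SD (0.08) was the smallest of the 23 genes tested for spread below. The promoters are written 5′ to 3′ on the strand of the gene, with the matches in capitals.
Rsad2 promoter, chr12:26456453-26456702, minus strand: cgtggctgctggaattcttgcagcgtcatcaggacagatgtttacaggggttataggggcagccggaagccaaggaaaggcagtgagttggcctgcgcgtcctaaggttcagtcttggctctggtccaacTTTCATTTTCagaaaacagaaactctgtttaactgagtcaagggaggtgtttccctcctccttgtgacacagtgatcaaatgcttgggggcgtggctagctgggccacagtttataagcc
Stat2 promoter, chr10:128270248-128270497, plus strand: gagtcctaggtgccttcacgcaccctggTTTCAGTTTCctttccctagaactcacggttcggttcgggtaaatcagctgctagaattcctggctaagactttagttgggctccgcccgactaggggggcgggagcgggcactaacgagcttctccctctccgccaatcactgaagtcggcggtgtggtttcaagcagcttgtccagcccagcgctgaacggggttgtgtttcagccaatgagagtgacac
Gbp3 promoter, chr3:142559794-142560043, plus strand: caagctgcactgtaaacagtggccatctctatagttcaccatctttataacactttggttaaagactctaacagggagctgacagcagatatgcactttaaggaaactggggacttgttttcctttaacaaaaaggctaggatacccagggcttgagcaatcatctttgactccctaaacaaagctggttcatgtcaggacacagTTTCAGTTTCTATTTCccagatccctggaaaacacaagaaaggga
Irgm1 promoter, chr11:48871421-48871670, minus strand: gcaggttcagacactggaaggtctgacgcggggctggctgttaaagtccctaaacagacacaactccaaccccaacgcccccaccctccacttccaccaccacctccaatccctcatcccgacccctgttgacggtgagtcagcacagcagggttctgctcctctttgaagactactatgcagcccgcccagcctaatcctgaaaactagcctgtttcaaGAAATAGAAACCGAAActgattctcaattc
In Rsad2 and Stat2 the capitals are a single ISRE core on the strand opposite to the gene, at -120 in Rsad2 and at -222 in Stat2. In Gbp3 and Irgm1 they are 2 overlapping ISRE cores, at -45 and -39 in Gbp3, on the opposite strand, and at -30 and -24 in Irgm1, on the strand of the gene. In Bst2 the ISRE cores at -130 and -124 overlapped each other, and that at -130 overlapped the GAS letters at -136, while in Igtp the GAS letters at -45 lay just ahead of an ISRE core at -34.

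**Figure D1:**
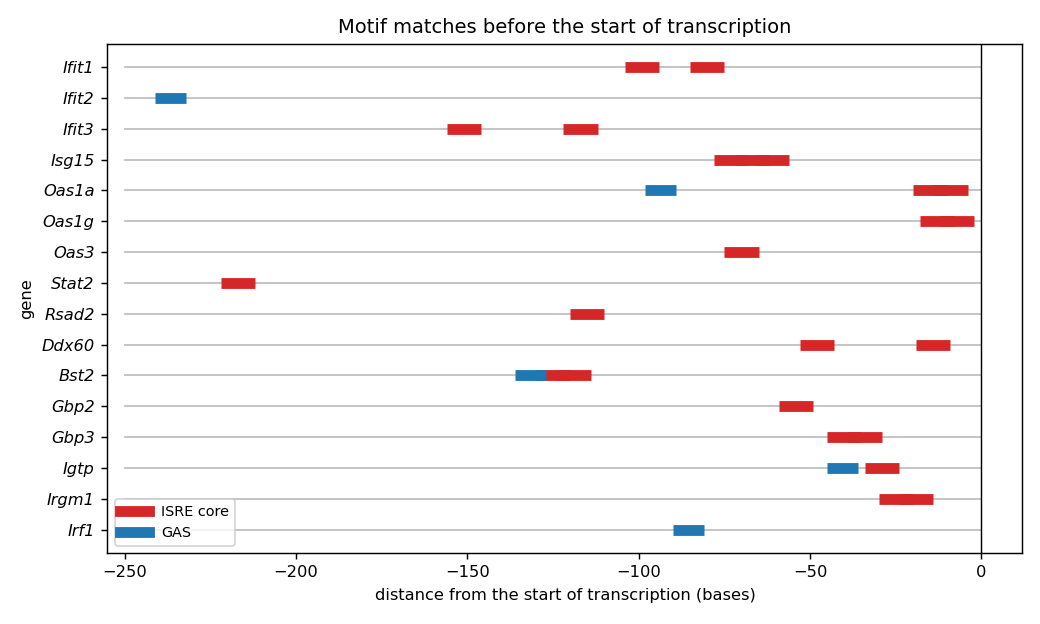
Positions of the ISRE core (red) and the GAS letters (blue) in the 250 bases before the start of transcription, for every listed gene with a match. The horizontal axis is the distance from the start in bases, and each grey line is the first promoter window of a gene, so that Oas1a, Oas1g, Igtp, Irgm1 and Gbp3 can be seen to hold their ISRE cores at -45 or nearer to the start.

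Each array gave 1 value per probe set on the log2 scale, so that a step of 1 stands for 2-fold more signal. Array medians lay between 6.22 and 6.31. A brightness floor marked background: 95% of 1210 probe sets for olfactory and vomeronasal receptors, genes of sensory neurons, were dimmer than it on the array in question. The floor lay between 5.59 and 6.07 and was highest in mouse 4, whose array also correlated least with another array (Pearson's r across probe sets 0.971 with mouse 1, where probe sets are not independent). Levels of different genes depend on their probes and are not compared. Hepatocyte markers were above the floor throughout, 7 of 7 measured, Alb and Apoa1 among them, as were 10 of 11 Kupffer cell and macrophage markers. Markers of blood-borne immune cells were mixed. Of 7 T cell genes 1, Cd3e, exceeded the floor on all 5 arrays and 3, Cd3d, Cd3g and Cd2, lay below it on all 5. Of 5 B cell genes the same held for 1, Cd79b, and 2, Cd79a and Ms4a1. Of 7 NK cell genes 1, Prf1, was above throughout and 5, Ncr1 among them, below throughout, and of 6 neutrophil genes 1, S100a9, was above and 4, S100a8 and Ly6g among them, below. The rest of these lists exceeded the floor on some arrays. These are whole livers, in which fewer cells of a type and less RNA per cell cannot be told apart.

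Most of the interferon-stimulated genes gave a signal above background. Of the 28 measured, 22 (78.6%) exceeded the floor on all 5 arrays, against 60.0% of all genes measured. Ifit2, Oas1b, Mx1 and Mx2 lay below it on all 5 arrays. Mx1 and Oas1b, an antiviral dynamin-like GTPase and a relative of the oligoadenylate synthetases, are known to carry inactivating mutations in C57BL/6 and most other laboratory strains. Mx1 ranged from 4.50 to 4.88, Mx2 from 4.71 to 5.28, Oas1b from 5.09 to 5.51 and Ifit2, of the same gene cluster as Ifit1 and Ifit3, from 5.36 to 5.53. Ddx60, a helicase gene, exceeded the floor on 1 array, that of mouse 1 (5.74), and Oas3, a large oligoadenylate synthetase gene, on 4. The mean of Oas3 (5.77) passed the floor of the means, also 5.77 after rounding, largely through mouse 3 (6.07), so its spread rests on values near background.

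**Figure D2:**
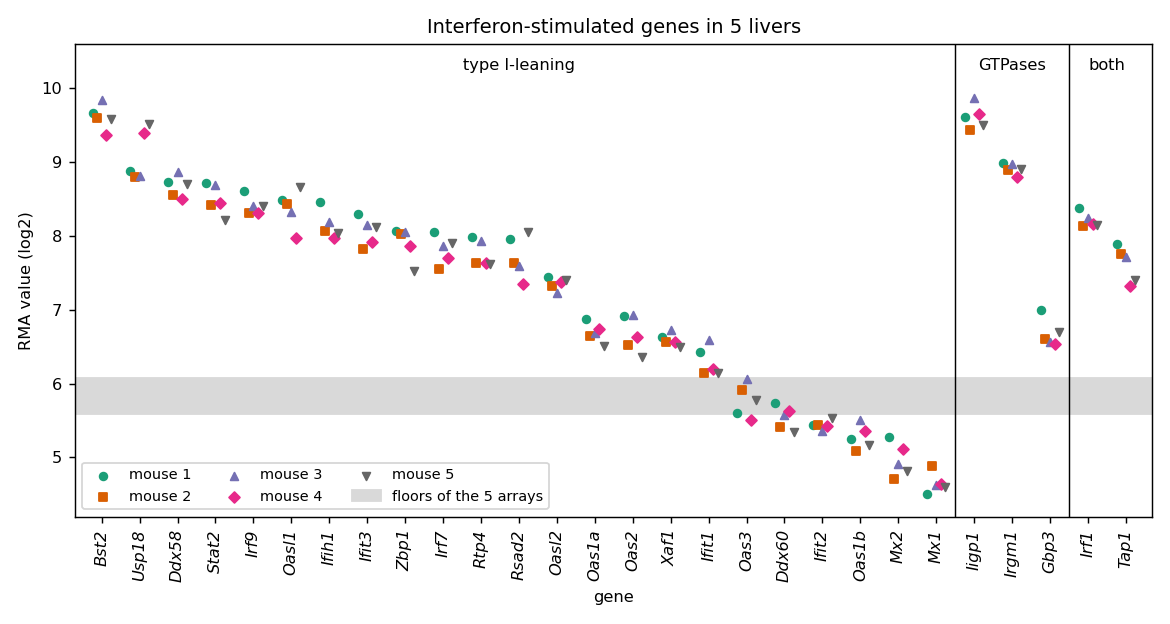
RMA values (log2, vertical axis) of the 28 measured interferon-stimulated genes in each of the 5 livers, 1 symbol per mouse and no averaging. The grey band spans the floors of the 5 arrays, 5.59 to 6.07, and Ifit2, Oas1b, Mx1 and Mx2 lie below the floor of every array. Genes are placed by their mean within each group for display only.

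The transcription factors that carry the type I signal differed by at most 1.42-fold between mice. Stat2, which is activated at the receptor, had values of 8.72, 8.41, 8.69, 8.45 and 8.22 in mice 1 to 5, a mean of 8.50 ± 0.21 (SD, n = 5). It was high in mice 1 and 3 and lowest in mouse 5. Irf9, which gives the complex its DNA specificity, had values of 8.61, 8.31, 8.41, 8.31 and 8.40, with an SD of 0.12. Irf7, which amplifies type I interferon production once induced, had values of 8.06, 7.55, 7.86, 7.70 and 7.90, with an SD of 0.20. Mouse 1 was the highest for all 3 of these genes, while mouse 2 was the lowest for Irf7 and Irf9.

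Usp18 had its high values in mice 4 and 5. Its product removes the ubiquitin-like protein Isg15 from other proteins and dampens signalling at Ifnar2, so it is a brake of the pathway. The values were 8.88, 8.80, 8.81, 9.40 and 9.51 in mice 1 to 5, a mean of 9.08 ± 0.34 and a 1.64-fold span. Mice 4 and 5 stood apart at the high end, although in mouse 4 only 3 of the 18 type I-leaning genes above the floor of the means exceeded their own mean. The other two were Oasl2, by 0.03, and Oas1a, by 0.04, against 0.32 for Usp18.

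Antiviral effector genes differed by at most 1.64-fold between any of the livers. Rsad2, which encodes viperin, an enzyme that makes a nucleotide that blocks viral RNA synthesis, had values of 7.96, 7.63, 7.60, 7.35 and 8.06 in mice 1 to 5 (SD 0.29, 1.64-fold). Oasl1, a synthetase-like gene whose product has been described as a brake on Irf7 translation, had values of 8.48, 8.44, 8.32, 7.97 and 8.67 (SD 0.26, 1.62-fold). Both were highest in mouse 5 and lowest in mouse 4. Oas2, which makes the oligoadenylates that activate RNase L, had values of 6.92, 6.52, 6.93, 6.63 and 6.36 (SD 0.25), and was thus lowest in the mouse in which Rsad2 and Oasl1 were highest. Ifit1, whose product binds viral RNA that lacks the host's cap methylation, had values of 6.43, 6.14, 6.59, 6.20 and 6.14 (SD 0.20), with mice 1 and 3 above the rest. Ifit3, of the same gene cluster, ranged from 7.83 in mouse 2 to 8.30 in mouse 1.

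The other type I-leaning genes above the floor on all arrays spanned between 1.16-fold and 1.46-fold. The RNA sensor genes Ifih1 and Ddx58 ranged from 7.98 to 8.46 and from 8.50 to 8.86, both lowest in mouse 4. Zbp1, a sensor of left-handed nucleic acid that can trigger cell death, had 7.52 in mouse 5 against 7.86 to 8.07 elsewhere. Bst2, which encodes tetherin, a protein that holds budding virus to the cell, ranged from 9.37 in mouse 4 to 9.85 in mouse 3. Rtp4, an interferon-induced gene of a receptor transporter family, ranged from 7.62 to 7.98, Oas1a from 6.51 to 6.88, Xaf1, a gene linked to apoptosis, from 6.49 to 6.72, and Oasl2 from 7.23 to 7.44. Xaf1 and Oasl2 had SDs of 0.09 and 0.08, below the SD of 0.13 expected at their level.

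Of the 3 measured GTPase genes, Gbp3 and Irgm1 were both highest in mouse 1 and lowest in mouse 4, and Iigp1 was highest in mouse 3 and lowest in mouse 2. Iigp1, which encodes an effector GTPase that attacks the vacuoles of intracellular parasites, had values of 9.61, 9.44, 9.86, 9.65 and 9.50 in mice 1 to 5 (SD 0.16). Irgm1, a regulator of such effectors, had values of 8.99, 8.90, 8.97, 8.80 and 8.91, with the smallest SD of the 23 tested genes, 0.08. Gbp3, a guanylate-binding protein gene, had values of 6.997, 6.60, 6.57, 6.54 and 6.70 (SD 0.19). Guanylate-binding proteins, Irg GTPases and oligoadenylate synthetases are families of close relatives, and how far their probes cross-react was not examined.

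Irf1, a transcription factor gene induced within hours by interferon-gamma, had values of 8.38, 8.14, 8.25, 8.17 and 8.15 in mice 1 to 5 (SD 0.10). Its other probe set, at a mean of 6.75 ± 0.09 (SD, n = 5), was highest in mouse 3 (6.89) instead of mouse 1, so the order of mice for this gene was not shared by its probe sets. Tap1, which encodes a subunit of the transporter that feeds peptides to MHC class I, had values of 7.90, 7.76, 7.71, 7.33 and 7.41 (SD 0.24). Mice 4 and 5 stood apart at the low end. Its neighbours on the chromosome, the immunoproteasome genes Psmb9 and Psmb8, were highest in mouse 3, at 8.68 and 6.69, and Psmb9 was lowest in mouse 5 (8.09).

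None of the interferon-stimulated genes passed the test of the spread between mice. The variance over the 5 mice was compared with the variance of probe sets at the same level (upper-tail F test on limma's robust variance fit, Benjamini-Hochberg adjustment over 14586 probe sets with a mean above the floor of the means). Of the 23 genes that could be tested, 0 passed at an adjusted p of 0.05, where 0.357% of all probe sets did. At an unadjusted p under 0.05 there were 3 of the 23, against 6.34% of all probe sets. These were Usp18 (limma adjusted p = 0.372), Rsad2 (0.718) and Oasl1 (0.780), the same 3 genes that were highest in mouse 5. Usp18 had 9.18 times the variance expected at its level, a ratio above that of 97.6% of the genes tested. Usp18 kept an SD between 0.28 and 0.38 with any mouse left out. The smallest ratio that passed over all probe sets was 37.8, an SD of 6.14 times that expected, so no narrower spread passed. A gene that missed the threshold is not shown to have been equal in all mice.

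Most of the 23 genes had a larger spread than was expected at their level. The ratio of variance to expected variance was above 1 in 19 of the 23, against 47.0% of all 13336 genes tested, and its median was 2.39 against 0.931. The median SD was 0.189 against 0.117, and the median span was 1.39-fold against 1.22-fold. The type I-leaning genes had a median SD of 0.194 (n = 18) and the GTPases of 0.165 (n = 3). Related lists, described below, did not all share the larger spread. The ratio was above 1 in 13 of 27 other type I targets (48.1%), close to the share of all genes tested. It was above 1 in 9 of 12 other interferon-gamma targets (75%) and in 5 of 10 class I presentation genes (50%). The larger spread thus holds for the 23 genes and not for interferon targets in general. Several genes are given below with the mouse whose removal lowered their SD most. Leaving out the most extreme mouse lowers the SD of any gene, and the falls were not compared with those of all genes. The SD went from 0.26 to 0.14 for Oasl1 without mouse 4 and from 0.23 to 0.10 for Zbp1 without mouse 5. Without mouse 1 it went from 0.19 to 0.07 for Gbp3, from 0.19 to 0.09 for Ifih1, from 0.12 to 0.06 for Irf9 and from 0.10 to 0.05 for Irf1. For Iigp1 it went from 0.16 to 0.10 without mouse 3, for Oasl2 from 0.08 to 0.05 without mouse 3, and for Irgm1 from 0.08 to 0.04 without mouse 4. Genes with and without an ISRE core in their promoter window had median SDs of 0.189 (n = 9) and 0.145 (n = 9), with ranges of 0.076 to 0.289 and 0.082 to 0.257 that overlapped.

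**Figure D3:**
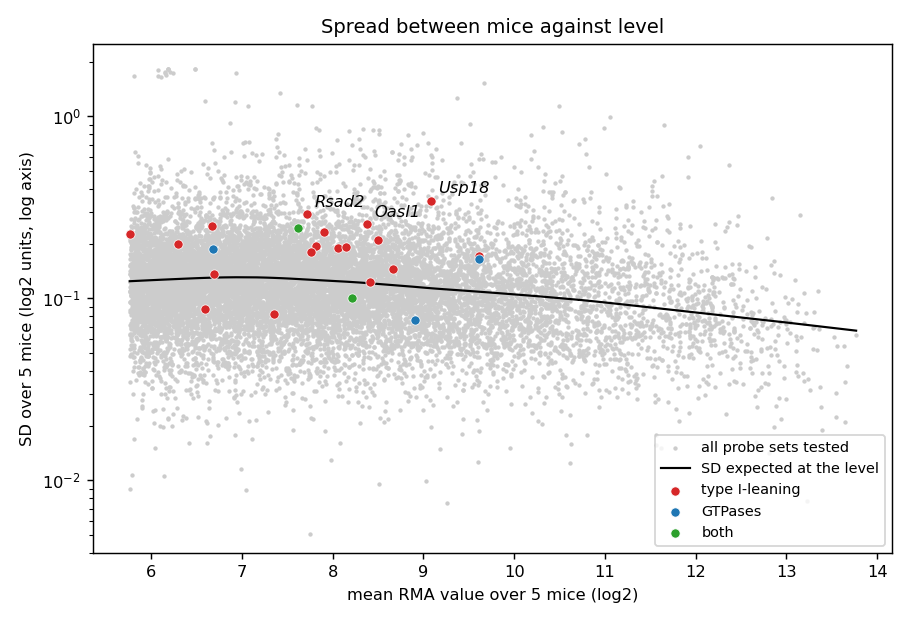
SD over the 5 mice (vertical axis, log scale) against the mean RMA value (log2) for the 14586 probe sets tested (grey) and the 23 interferon-stimulated genes among them (red, type I-leaning; blue, GTPases; green, Irf1 and Tap1). The black line is the SD expected at each level, and 19 of the 23 coloured points lie above it, with Usp18, Rsad2 and Oasl1 highest for their level.

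Across the genes, mice 1 and 3 were on the high side and mice 2 and 4 on the low side. Mouse 1 was the highest mouse for 13 of the 23 genes (56.5%, against 23.9% of all genes tested) and mouse 3 for 7 (30.4% against 22.9%). Mice 2 and 4 were the highest for 0 of the 23, against 25.5% and 8.47% of all genes. Mice 1 and 3 took the first and second place for 13 of the 23 genes, Stat2, Oas2, Ifit1 and Rtp4 among them, against 16.2% of all genes. Mouse 2 was the lowest for 7 genes (30.4% against 11.4%), Irf7, Ifit3 and Ifit1 among them. Mouse 4 was the lowest for 9 (39.1%), close to its share over all genes (36.5%).

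**Figure D4:**
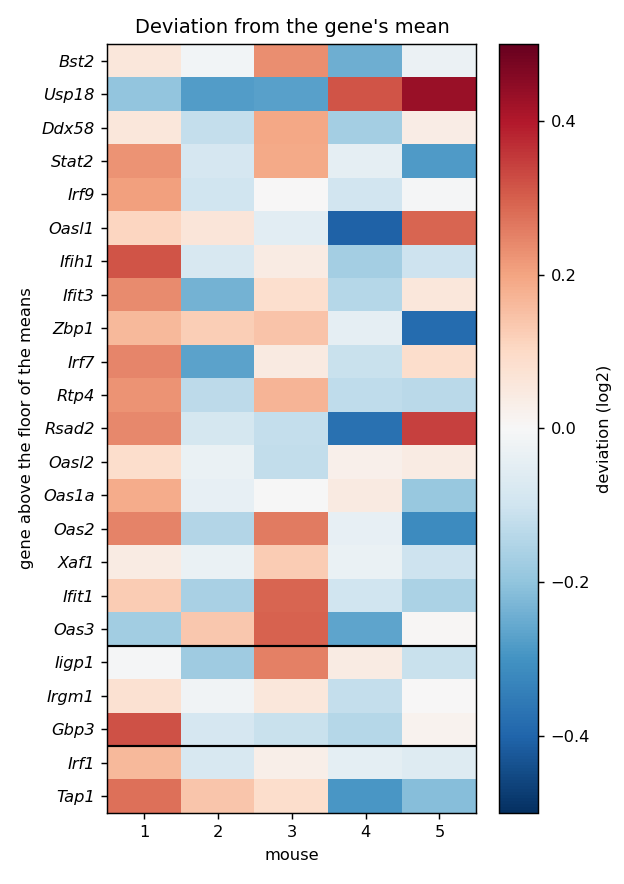
Deviation of each of the 23 tested interferon-stimulated genes from its own mean over the 5 mice (colour, log2), genes in rows by group and mice in columns. Mouse 1 is red for 20 of the 23 genes and mouse 2 blue for 19. Usp18 is blue in mice 1 to 3 and red in mice 4 and 5, and Oas3 is blue in mouse 1 and red in mouse 2.

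The type I-leaning genes and the GTPases were set against each other by their mean deviation. Each gene was taken relative to its own mean over the 5 mice and the deviations were averaged over the group. In mice 1 to 5 the 18 type I-leaning genes deviated by 0.13, -0.08, 0.08, -0.11 and -0.02, and the 3 GTPases by 0.13, -0.09, 0.07, -0.07 and -0.03. Both group means thus had mice 1 and 3 above and mice 2, 4 and 5 below, but the 3 GTPases did not share this order. In mouse 1 Gbp3 deviated by 0.32, Irgm1 by 0.08 and Iigp1 by -0.005. In mouse 3 Iigp1 deviated by 0.25, Irgm1 by 0.06 and Gbp3 by -0.11. The difference between the groups lay between -0.04 in mouse 4 and 0.02 in mouse 3, but it depended on the summary. With the median over genes it was 0.0985 in mouse 1 and 0.0134 in mouse 4, and mouse 4 also turned positive with all measured genes (0.000157) or with each gene divided by its SD (0.00364). All genes tested deviated by 0.03, 0.03, 0.0036, -0.06 and -0.0014 in the same mice. Mouse 4 was thus low over the genes above the floor as a whole, although its array had the highest median, and centring the arrays on their medians moved its type I-leaning deviation from -0.11 to -0.16. Mouse 2 was low for the interferon-stimulated genes and slightly high over all genes. Without mouse 1, mouse 5 turned to 0.01 for the type I-leaning genes and 0.00125 for the GTPases. With 5 mice of 1 group these deviations have no test, and 3 genes are few for a group mean.

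**Figure D5:**
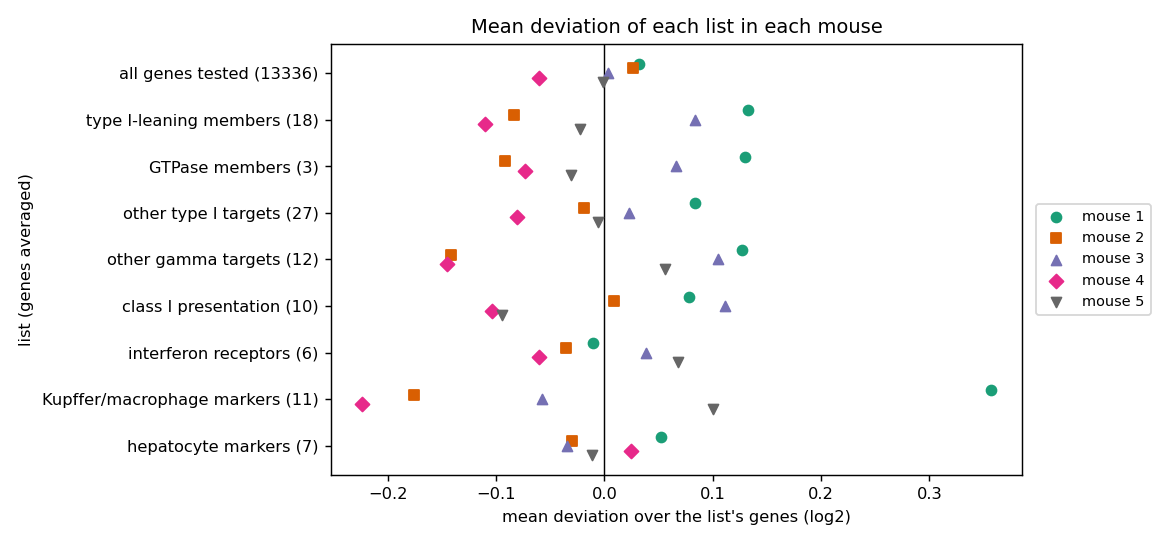
Mean deviation from the gene's own mean (log2, horizontal axis) in each of the 5 mice for the interferon-stimulated genes, related gene lists, marker lists and all genes tested, with the number of genes averaged in brackets. The type I-leaning and GTPase rows show the mice in similar places, with mouse 1 at 0.13 in both, and Kupffer cell and macrophage markers spread wider, from -0.22 in mouse 4 to 0.36 in mouse 1.

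Upstream of these genes, most interferon genes were near background. Ifnb1, the type I interferon of most cell types, lay below the floor on all 5 arrays (4.35 to 4.85), and Ifng, the gene of interferon-gamma, ranged from 5.50 to 5.93 and exceeded the floor on 3. Of 16 genes for interferons and inducing cytokines, 14 were measured and 9 had a mean at or below the floor of the means. The 4 that exceeded the floor on all arrays were Il27 (6.56 to 7.04) and Il18 (6.41 to 6.72), cytokines that promote interferon-gamma production, Ifnl2 (8.40 to 8.73), a type III interferon gene with a near-identical copy, and Ifna5 (7.07 to 7.34), an interferon-alpha gene. Il18 and Ifna5 are named after their values were seen. Of the 5 tested, 0 passed the F test and 1 had an unadjusted p under 0.05, Ifna2, another interferon-alpha gene, a family of many close copies (5.51 to 6.26, above the floor on 3 arrays, limma adjusted p = 0.740). The receptor genes spanned between 1.05-fold and 1.37-fold over the mice. Ifnar1 was 8.80 ± 0.03 (SD, n = 5), Ifnar2 11.12 ± 0.05 and Ifngr2 10.58 ± 0.08, while Ifngr1 (9.20 ± 0.19) was highest in mouse 5 at 9.50 and had an SD of 0.11 without it. Il10rb, a shared chain of the type III receptor, had 8.53 ± 0.09. Of the 6 receptor genes, 0 passed limma's F test (lowest adjusted p 0.970) and 0 had an unadjusted p under 0.05. Over all probe sets these shares were 0.357% and 6.34%, from which lists this short can hardly be told apart.

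Signal carriers and sensors gave no calls, but lists this short could hardly differ from all probe sets. Of these 0.357% passed the F test and 6.34% had an unadjusted p under 0.05. Of 10 kinase, Stat and inhibitor genes tested, 0 passed and 0 had an unadjusted p under 0.05. Socs3, a feedback inhibitor of Jak kinases, had 7.07 in mouse 4 against 7.40 to 7.50 elsewhere (SD 0.19, and 0.05 without mouse 4), and Jak2 ranged from 7.15 to 7.54 (SD 0.14, and 0.08 without mouse 5). Of 13 sensor and adaptor genes tested, 0 passed and 0 had an unadjusted p under 0.05. Among these Dhx58, a helicase related to Ddx58, had values of 7.52, 7.16, 7.48, 7.04 and 7.08, again with mice 1 and 3 above the rest, and the kinase gene Ikbke ranged from 7.43 to 8.00 (SD 0.23, and 0.14 without mouse 1).

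Further targets were read from lists that hold none of the 35 genes. Of 27 other type I targets tested, 0 passed and 2 had an unadjusted p under 0.05, against 0.357% and 6.34% of all probe sets. Ifitm3, which restricts virus entry, had values of 11.88, 11.09, 11.61, 11.23 and 11.61 (SD 0.32, limma adjusted p = 0.247), and Lgals3bp, a secreted glycoprotein gene, ranged from 10.83 to 11.37 with mouse 5 highest (adjusted p = 0.725, SD 0.21, and 0.11 without mouse 5). Cmpk2, a nucleotide kinase gene that neighbours Rsad2, was likewise lowest in mouse 4 and highest in mouse 5, over a range of only 6.50 to 6.77. It was picked after its values were seen. The list deviated by 0.08, -0.02, 0.02, -0.08 and -0.01 in mice 1 to 5.

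Of 12 other interferon-gamma targets tested, 0 passed and 3 had an unadjusted p under 0.05, against 0.357% and 6.34% of all probe sets. Cxcl10, a chemokine gene that draws T cells, had values of 7.67, 7.27, 7.28, 7.44 and 8.84 in mice 1 to 5 (SD 0.66, 2.97-fold, limma adjusted p = 0.083). Its SD was 0.19 without mouse 5, so a single liver set the spread. Gbp11, a guanylate-binding protein gene, had values of 7.29, 6.77, 7.63, 6.52 and 7.02 (SD 0.43, adjusted p = 0.293), with mice 1 and 3 highest. The third was Gbp2b (5.53 to 6.18, limma adjusted p = 0.595), which exceeded the floor on only 2 arrays, so its spread rests on values near background. The list deviated by 0.13, -0.14, 0.10, -0.15 and 0.06. In mouse 5 only 3 of the 12 genes exceeded their own mean, Cxcl10 among them, and the median deviation was -0.02. Of 10 class I presentation genes, 0 passed and 0 had an unadjusted p under 0.05, against the same shares of all probe sets. Psmb9 and the class I gene H2-Q4 (7.54 to 8.04) were the widest above the floor on all arrays, both highest in mouse 3, and the SD of Psmb9 went from 0.22 to 0.11 without that mouse. The list deviated by 0.08, 0.01, 0.11, -0.10 and -0.09.

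Markers of other cells moved with the mice as well. The 11 Kupffer cell and macrophage markers deviated by 0.36, -0.18, -0.06, -0.22 and 0.10 in mice 1 to 5, and the log2 of their summed signal lay between 12.49 in mouse 2 and 12.97 in mouse 1. The 2 erythroid genes above the floor deviated by 0.45, -0.13, 0.32, -0.33 and -0.30, the 3 skeletal muscle genes by 0.54, -0.27, -0.08, -0.02 and -0.17, and the 6 stellate cell markers by 0.20, -0.08, 0.03, -0.07 and -0.07. Hepatocyte markers deviated by 0.05, -0.03, -0.03, 0.02 and -0.01, and sinusoidal endothelial markers by 0.06, -0.01, 0.01, -0.04 and -0.02. The 4 dendritic cell markers with a mean above the floor deviated by 0.11, -0.06, 0.06, -0.09 and -0.02. This is the order of mice of the 18 type I-leaning genes, but the single markers did not share it. In mouse 1 only 2 of the 4 exceeded their own mean, Flt3 (6.33, above the floor on 4 arrays) and Zbtb46 (6.83). Clec9a was highest in mouse 5 (6.49) and Cd209a in mouse 4 (6.27). Of the 6 dendritic cell markers, 3 exceeded the floor on all arrays and Itgax and Xcr1 lay below it on all, and the log2 of their summed signal lay between 8.50 and 8.66. The 4 T cell markers with a mean above the floor were highest in mouse 3 (0.105), as were the 3 B cell markers (0.25). Mouse 1 thus had the highest mean for macrophage, dendritic cell, erythroid, muscle, stellate, hepatocyte and sinusoidal endothelial markers. The same held for the type I-leaning genes, the GTPases and all genes tested (0.03). Neutrophil (0.18) and plasmacytoid dendritic cell markers (0.06) were highest in mouse 5 and cholangiocyte markers in mouse 2 (0.14). The 1 NK cell and 1 adipocyte gene with a mean above the floor were highest in mouse 3. The part of these markers in the values of the interferon-stimulated genes was not tested.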

How the data were processed

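Total RNA from 5 livers was hybridised, 1 array per mouse. Per the labels, the mice are biological replicates. The authors deposited log2 values, 1 for each array at every probe set, made by RMA in Affymetrix Expression Console 1.2 according to the submitters' processing notes. The sources used here do not say which arrays were normalized together, and scanner files were not analysed here. RMA compresses differences near background. The number of arrays limits the precision.

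Of 35556 probe sets, 21789 had 1 gene symbol in the platform annotation, 1621 several and 12146 none. Gene IDs matched the RefSeq table (GRCm38.p6) for 21698 and changed 0 symbols.

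An intercept-only model (limma 3.58.1, statmod 1.5.0, R 4.3.3) gave each variance on 4 residual degrees of freedom. It was compared with the variance fitted robustly at the same mean, with prior degrees of freedom of 6.21, by an upper-tail F test. The procedure was tested on simulated data. Other steps used Python 3.11.15, numpy 2.4.6, pandas 2.3.3 and matplotlib 3.10.9.

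The gene list, the related lists and the tests were chosen with earlier results of these data known. Values in every mouse are given for the 4 type I-leaning genes and the 3 GTPases with the largest SD above the floor on all arrays, and for genes of central roles. Of other pathway genes, the receptors, Ifnb1, Ifng and the 2 widest of each list are named, and a few others beside them. Promoters were shown for the 2 widest genes of each group with a match, leaving out chromosome 18. The alternatives were other normalizations, filters, variance fits and list summaries, and each mouse left out.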

Additional observations from a re-analysis of the deposited data

Results flagged for a closer look

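Of 50 sets of 5 values examined, 28 of them interferon-stimulated genes, 3 had a lowest or highest mouse whose gap to its neighbour took a larger share of the whole range than Dixon's critical value for 5 samples, 0.71. Chance gives this in about 1 of 20 sets that were not picked for their spread. Socs3 and Cxcl10, named below, were picked as among the widest genes of their lists, so this rate does not hold for them. None of the 28 genes was among the 3. Socs3 was 7.07 in mouse 4, and the gap to the nearest other mouse, 7.40, was 0.761 of the range. Cxcl10 was 8.84 in mouse 5, and the gap to 7.67 in mouse 1 was 0.748 of the range. The type I-leaning minus GTPase deviation was -0.04 in mouse 4, with a gap of 0.738 of the range, while the other mice lay between 0.003 and 0.02. Its direction in mouse 4 was lost under 3 of 11 alternatives (0.000157, 0.0134 and 0.00364). Centring the arrays on their medians and averaging a gene's probe sets, which are among the 11, could not change it.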

How the results depend on the processing

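The count of interferon-stimulated genes that passed the limma F test was 0 under all 14 alternatives, with a lowest adjusted p between 0.337 and 0.764. No probe set of the whole array passed with all probe sets included, nor without mouse 4, so no gene could pass there. Under the other alternatives between 18 and 142 of all probe sets passed, so 0 of these genes says little. At an unadjusted p under 0.05 there were 1 to 3 of the genes, against 4.76% to 6.61% of all probe sets. There was 1 without the robust step, with all probe sets and without mouse 5. The number above the floor on all arrays was 22 with the floor at the 90th percentile and 17 at the 99th, and 22 to 23 with a mouse left out, an alternative chosen after seeing the data. The deviations of the type I-leaning genes kept their sign in mice 1 to 4 under all 11 alternatives, as did those of the GTPases. Some alternatives could not change them. Averaging a gene's probe sets left both groups as they were. The filters on the floor left the GTPases as they were, because the same 3 probe sets entered. In mouse 5 the deviations of the type I-leaning genes and the GTPases turned to 0.01 and 0.00125 without mouse 1. Those of the GTPases turned to 0.0002 with the median over genes. The difference between the groups, 0.003 to 0.02 in mice 1, 2, 3 and 5, was not stable. With the median over genes it was 0.0985 in mouse 1, 0.0494 in mouse 3, 0.0134 in mouse 4 and -0.0176 in mouse 5. In mouse 4 it was 0.000157 with all measured genes and 0.00364 with each gene divided by its SD. The cause was not tested. Cxcl10 passed the limma F test with arrays centred on their medians (adjusted p = 0.0177) and without mouse 1 (0.0438), and its adjusted p lay between 0.0177 and 0.994 over all alternatives. No paired analysis was possible because all samples form 1 group. Probe sets below the floor, such as those of Mx1 and Mx2, carry no order between mice.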
